A study of Homo sapiens with 12 samples.

Results

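Tumours from mice given an EZH2 inhibitor together with a p38 inhibitor were compared with tumours from mice given vehicle. The tumours grew from MDA-MB-231, an established human line of triple-negative breast cancer, after 2000000 cells in 50 µl of Matrigel were placed in the right inguinal mammary fat pad. The combination group received SB202190, which blocks p38 kinases, together with the EZH2 inhibitor EPZ-6438, and the labels do not restate the doses for this group. The single-agent groups were given EPZ-6438 at 10 mg/kg/day (called EZH2i here; the label spells the code EPZ-6428) or SB202190 at 1 mg/kg/day (called p38i), and the vehicle group received 4% DMSO, 30% PEG 300 and 5% Tween 80. All groups were injected intraperitoneally on 5 days a week, starting once tumours measured 100 mm3. The strain, sex and age of the mice and the length of treatment were not given in the sources used here, and neither was a removal of mouse reads. Libraries were assigned by the column name that each label gives. This placed 3 combination and 3 vehicle libraries in the comparison, out of 12 libraries in all, and 12514 of 25369 genes passed the filter on low counts. The labels number the tumours but do not say that each came from its own mouse, so the p-values measure the spread between these tumours.

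EZH2 is the catalytic subunit of the Polycomb repressive complex PRC2, which methylates lysine 27 of histone H3 and keeps target genes silent. The p38 kinases, with p38 alpha encoded by MAPK14 as their main form, carry stress and cytokine signals to transcription factors and to proteins that bind AU-rich elements (ARE) in short-lived mRNAs. In breast cancer both pathways have been tied to invasion, inflammation and proliferation. Both compounds act on proteins, so the mRNA of their targets does not report inhibition.

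The 3 combination libraries held between 3115765 and 4467942 counts, and the 3 vehicle libraries between 2484579 and 4360021. Levels are given in CPM, counts relative to the library size after TMM scaling (trimmed mean of M values). Within the combination group, libraries are listed as 8-1, 9-1 and 9-2, and within the vehicle group as 1-1, 1-3 and 2-1. On the first principal component, which held 32.6% of the variance, the combination libraries scored -7.07, 10.2 and 18.4, against -34.2, -18.9 and 3.32 for the vehicle libraries. Vehicle 2-1 thus lay between the combination libraries, while vehicle 1-1 lay farthest from them. All 12 genes of a list that defines the cell line were tested, and their summed level ran between 10717 and 12937 CPM in combination libraries and between 11270 and 12289 CPM in vehicle libraries.

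A single gene passed the test of combination against vehicle with the quasi-likelihood test of edgeR at an adjusted p of 0.05. ITGA10, the collagen-binding alpha 10 integrin chain, fell to 85.0, 115 and 83.2 CPM in the combination libraries, against 314, 256 and 231 CPM in the vehicle libraries. The groups did not overlap. In bulk tumours, fewer cells of a type and less RNA per cell cannot be told apart. The mean was 94.5 ± 18.1 CPM under the combination and 267 ± 42.6 CPM under vehicle (SD, n = 3 each), a log2 fold change of -1.49 with a standard error of 0.185 and an edgeR adjusted p of 0.00974. Over 21 other settings and left-out libraries the log2 fold change lay between -1.65 and -1.36, and the adjusted p lay between 2.32e-10 and 0.173. The fit without p38i column 6 is counted there both as a setting and as a left-out library. It missed the threshold without combination 9-2 (0.173), vehicle 1-1 (0.0628) or vehicle 1-3 (0.0509), the adjusted p from edgeR being in parentheses.

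No gene was called higher by edgeR. At an unadjusted p of 0.05 it found 958 genes higher and 1085 lower, which is 7.66% and 8.67% of the genes tested. Calls in either direction came to 1 of 12514 genes, or 0.00799%. limma-voom called 1 gene as well, whereas DESeq2 on the same genes and libraries called 72 higher and 95 lower, or 0.575% and 0.759%. All 167 genes called by DESeq2, 1.33% of those tested, had an unadjusted edgeR p below 0.05, and in 162 of them the groups did not overlap. They were selected on these same libraries, so neither count is separate support for the calls. Over all genes tested, 1343 (10.7%) had all combination libraries above all vehicle libraries and 1405 (11.2%) had them all below. The median log2 fold change of all genes was 0.01.

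**Figure D1:**
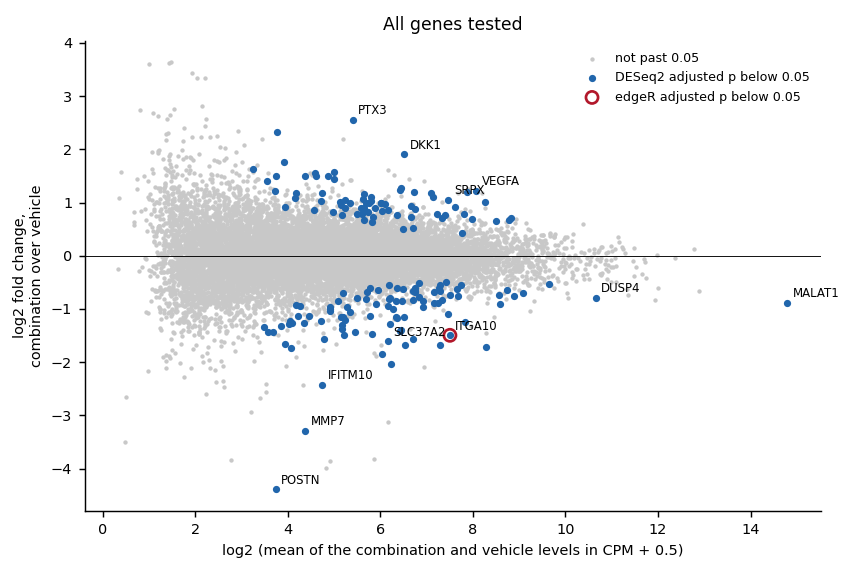
Each point is 1 of the 12514 genes tested, with its mean level over the combination and vehicle groups on the horizontal axis (log2 of CPM + 0.5) and its log2 fold change, combination over vehicle, on the vertical axis. Blue points mark the 167 genes called by DESeq2, and the red ring marks ITGA10, the gene called by edgeR.

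The count of calls turned on single libraries. Without vehicle 2-1 edgeR called 123 genes higher and 106 lower, which is 0.957% and 0.825% of the 12852 genes then tested (1.78% together), and 90 of these genes were among the 167 called by DESeq2 with all libraries. Without vehicle 1-1, vehicle 1-3 or combination 9-2 it called none. DESeq2 called 958 genes without vehicle 2-1, 27 without combination 9-2 and 28 without vehicle 1-3. A total of 19 DESeq2 calls were kept whichever of the 12 libraries was left out. They included CLEC2D, DKK1, EFEMP1, FKBP5, H6PD, IFITM10, ITGA1, ITGA10, LTBR, METTL7A, NFIC, PTX3, RP2, SGK1, SLC37A2, SRPX and VSTM2L, a set chosen after their values were seen.

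**Figure D2:**
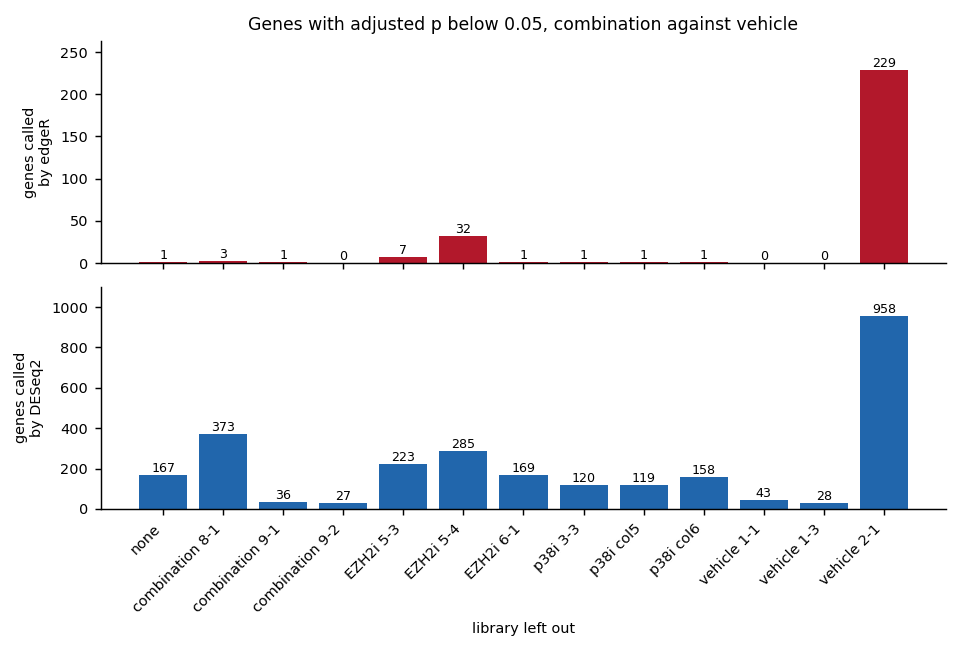
Bars give the number of genes with an adjusted p below 0.05 in combination against vehicle, by edgeR (top) and DESeq2 (bottom), with no library or with the named library left out. Without vehicle 2-1 the counts were 229 and 958, against 1 and 167 with all libraries.

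The 10 genes with the smallest p all had separate groups. After ITGA10, their edgeR adjusted p lay between 0.0765 and 0.0824, so they are given as values. In the edgeR fit of the combination and vehicle libraries alone, SLC37A2 passed with an adjusted p of 0.0180 and ITGA10 with 0.0438. ATOH8 (0.0451) and EFEMP1 passed in that fit as well. Among those with the lower level under the combination, SLC37A2, a phosphate-linked glucose-6-phosphate antiporter of the endoplasmic reticulum, had 41.0, 32.6 and 32.3 CPM in combination libraries, against 97.8, 109.9 and 113 CPM in vehicle libraries. IFITM10, of the family of interferon-induced transmembrane proteins, had 10.8, 7.71 and 5.96 CPM in combination libraries, against 61.6, 50.4 and 21.3 CPM in vehicle libraries. CLEC2D, a ligand of the natural killer cell receptor CD161, had 20.8, 22.2 and 13.8 CPM in combination libraries, against 72.4, 49.8 and 39.6 CPM in vehicle libraries. In IFITM10 and CLEC2D the vehicle libraries themselves ranged widely, with 2-1 the lowest. METTL7A, a methyltransferase of the endoplasmic reticulum and lipid droplets, had 19.6, 20.3 and 19.1 CPM in combination libraries, against 68.7, 42.0 and 44.3 CPM in vehicle libraries. H6PD, which makes NADPH inside the endoplasmic reticulum, had 175, 147 and 133 CPM in combination libraries, against 238, 266 and 266 CPM in vehicle libraries. Their log2 fold changes were -1.60 ± 0.251 for SLC37A2, -2.43 ± 0.439 for IFITM10, -1.49 ± 0.267 for CLEC2D, -1.38 ± 0.253 for METTL7A and -0.76 ± 0.142 for H6PD (± standard error).

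Of the 4 with the higher level under the combination, PTX3, a secreted pentraxin of innate immunity, had the largest difference. It had 34.3, 99.5 and 81.0 CPM in combination libraries, against 7.08, 9.01 and 19.2 CPM in vehicle libraries, a log2 fold change of 2.56 ± 0.417. SRPX, which encodes a sushi-repeat protein, had 244, 224 and 249 CPM in combination libraries, against 108, 97.6 and 139 CPM in vehicle libraries. RP2, a GTPase-activating protein for ARL3, had 68.9, 56.4 and 73.4 CPM in combination libraries, against 25, 30 and 38.4 CPM in vehicle libraries. In both genes vehicle 2-1 was the vehicle library nearest to the combination. SGK1, a kinase induced by serum and glucocorticoids, had 56.3, 61.6 and 65.0 CPM in combination libraries, against 36.2, 34.2 and 35.3 CPM in vehicle libraries. The log2 fold changes were 1.05 ± 0.172 for SRPX, 1.07 ± 0.196 for RP2 and 0.79 ± 0.145 for SGK1.

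**Figure D3:**
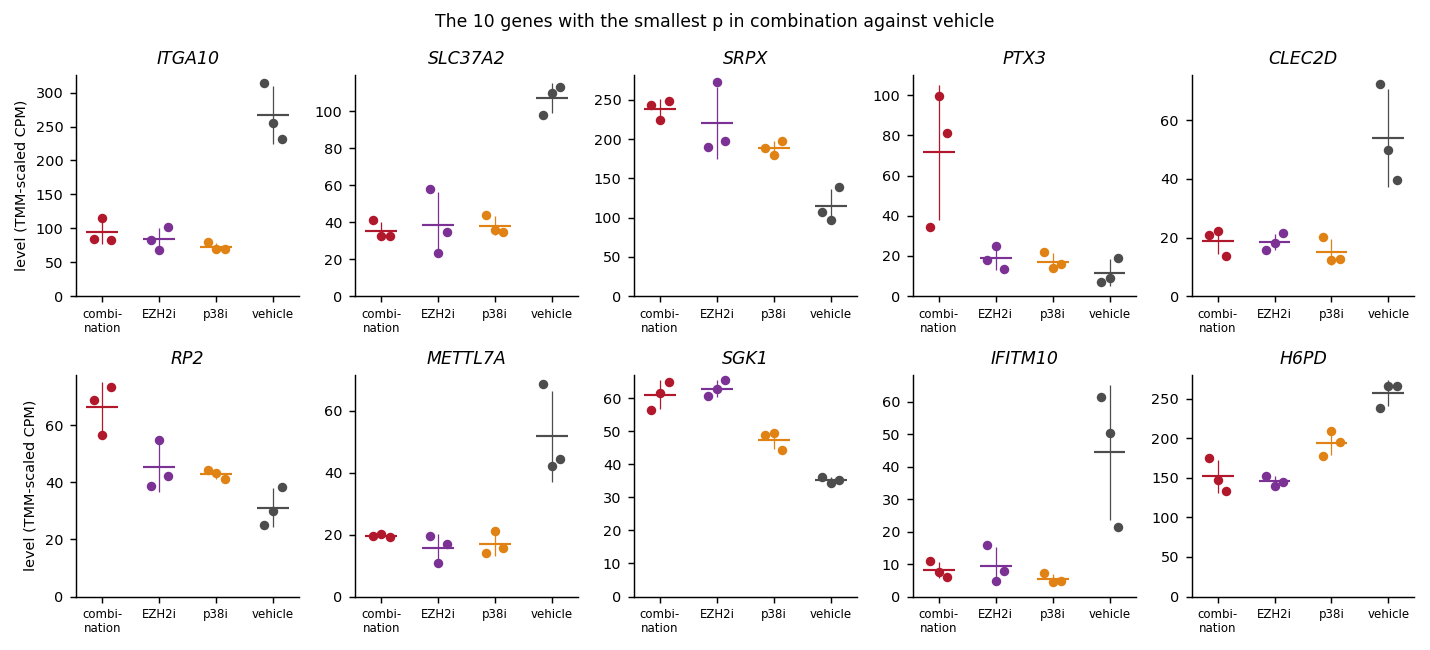
Each panel shows the level (TMM-scaled CPM) of 1 of the 10 genes with the smallest p in the 3 libraries of each group, with the mean as a horizontal line and the SD as a vertical line. PTX3 stands between 34.3 and 99.5 CPM under the combination and between 7.08 and 19.2 CPM under vehicle, while ITGA10 lies between 68.9 and 115 CPM in the 3 inhibitor groups.

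Neither drug target differed in mRNA by the test. EZH2 had 162, 120.4 and 133 CPM in combination libraries, against 104, 123 and 158 CPM in vehicle libraries, with an edgeR adjusted p of 0.808. MAPK14 had 99.0, 136 and 129 CPM in combination libraries, against 95.3, 95.8 and 92.7 CPM in vehicle libraries, with an edgeR adjusted p of 0.328. Of the 13 PRC2 subunits tested, 0 were called with all libraries, and their median log2 fold change was 0.12, which was 0.19 without combination 9-1. Without vehicle 2-1 edgeR called RBBP7 higher, against 0.957% of all genes then tested. RBBP7, a histone-binding subunit, had 166, 176 and 224 CPM in combination libraries, against 82.8, 100.0 and 153 CPM in vehicle libraries. EED, the subunit that reads methylated lysine 27, had 104, 112 and 96 CPM in combination libraries, against 64.5, 64.8 and 94.6 CPM in vehicle libraries. Among 23 p38 kinases, their activators and downstream kinases, 0 were called and the median was 0.28, which was 0.18 without combination 9-1. Of these genes, 6 had separate groups with the combination above and 1 with it below, against 10.7% and 11.2% of all genes. The upstream kinase ZAK had 145, 139.6 and 180.4 CPM in combination libraries, against 106, 126 and 107 CPM in vehicle libraries, and DUSP1, a phosphatase that acts on p38, had 28.1, 66.5 and 56.8 CPM in combination libraries, against 30.8, 20.7 and 36.3 CPM in vehicle libraries, with overlap.

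Genes reported in other systems as repressed by EZH2 gave no edgeR call with all libraries. Without vehicle 2-1 edgeR called 2 of them higher, DKK1 and GATA6, against 0.957% of all genes then tested. Of 17 tested, edgeR called 0 and DESeq2 called DKK1 higher, 10 had a positive log2 fold change, against 50.4% of all genes, and the median was 0.05. That median was 0.25 without vehicle 1-1 and -0.02 without vehicle 1-3. DKK1, a secreted inhibitor of Wnt signalling, had 90.5, 170.4 and 172 CPM in combination libraries, against 19.1, 32.7 and 61.6 CPM in vehicle libraries. GATA6, a transcription factor of endoderm and heart, had 4.98, 6.38 and 5.65 CPM in combination libraries, against 1.67, 1.5 and 2.61 CPM in vehicle libraries, so it stayed low in all 6. CDKN2A, HOXA9 and GATA4 had 0 counts in these 6 libraries.

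Proliferation genes were the list with the most members at an unadjusted p below 0.05. Among 28 G2/M genes, which drive entry into and passage through mitosis, 27 had a positive log2 fold change, against 50.4% of all genes, and the median was 0.63. edgeR called 0 of them at the adjusted threshold and DESeq2 called 2 higher, against 0.575% of all genes. At an unadjusted p of 0.05, 14 were higher, against 7.66% of all genes. Separate groups with the combination above were found in 17, against 10.7% of all genes. CCNB2, which encodes cyclin B2, had 46.6, 47.6 and 45.5 CPM in combination libraries, against 19.1, 21.9 and 30.1 CPM in vehicle libraries. CCNA2, which encodes cyclin A2, had 80.9, 85.4 and 90.1 CPM in combination libraries, against 27.9, 39.9 and 60.2 CPM in vehicle libraries. In both cyclins the combination libraries lay within a narrow range above vehicle libraries that spread widely, with 1-1 the lowest and 2-1 the highest. The median level of the list, as log2 of CPM + 0.5, was 6.41, 6.36 and 6.47 in combination libraries, against 5.23, 5.66 and 6.12 in vehicle libraries. Of 23 S phase and E2F genes, 21 had a positive log2 fold change with a median of 0.41, 10 were higher at an unadjusted p of 0.05, against 7.66% of all genes, and neither tool called any. GINS1, of the replicative helicase, had 29.3, 32.8 and 36.7 CPM in combination libraries, against 11.7, 13.2 and 21.8 CPM in vehicle libraries. RRM2, of ribonucleotide reductase, had 91.1, 80.4 and 88.2 CPM in combination libraries, against 24.6, 41.7 and 65.2 CPM in vehicle libraries. Without vehicle 2-1 edgeR called 6 G2/M genes and 5 S phase genes, all higher, against 0.957% of all genes then tested. Without vehicle 1-1 it called 0 of either list.

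The promoters of both cyclins hold a match to the cell cycle homology region, an element through which G2/M genes are kept low early in the cycle. They are shown because both genes were called by DESeq2. The stretches cover the 200 bases before the RefSeq transcription start, GRCh38.p14, written 5′ to 3′ on the gene's strand, with matches in capitals. CCNB2 lies on the plus strand at chr15:59104946-59105145, with a match that starts 29 bases before the start site. CCNA2 lies on the minus strand at chr4:121823884-121824083, with matches that start 87 and 28 bases before it.
CCNB2: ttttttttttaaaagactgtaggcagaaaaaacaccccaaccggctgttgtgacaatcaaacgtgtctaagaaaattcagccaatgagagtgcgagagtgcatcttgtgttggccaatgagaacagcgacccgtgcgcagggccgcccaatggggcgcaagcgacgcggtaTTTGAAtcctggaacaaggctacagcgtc
CCNA2: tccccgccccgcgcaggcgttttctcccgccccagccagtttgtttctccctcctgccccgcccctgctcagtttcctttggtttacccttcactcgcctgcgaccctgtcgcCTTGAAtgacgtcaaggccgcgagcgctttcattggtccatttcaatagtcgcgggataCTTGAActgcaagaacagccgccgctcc
The letters searched were TTTGAA and CTTGAA on both strands within 250 bases before the start. One strand or the other matched in 13 of the 23 G2/M promoters that the table holds (56.5%) and in 20.9% of all 35116 promoters. A match describes letters in a window, not a bound site.

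Heat shock chaperones, which refold proteins under stress, showed the same side in nearly every member. Of 16 tested, 15 had a positive log2 fold change, against 50.4% of all genes, with a median of 0.29. Of these genes 6 were higher at an unadjusted p of 0.05, against 7.66% of all genes, edgeR called 0, and DESeq2 called 3 higher, against 0.575% of all genes. HSPH1, an exchange factor for HSP70 proteins, had 195, 211 and 233 CPM in combination libraries, against 127, 112 and 135 CPM in vehicle libraries. HSPA1A, the inducible HSP70, had 148, 235 and 184 CPM in combination libraries, against 66.6, 57.6 and 126 CPM in vehicle libraries. HSPA1B, its near-identical copy, had 88.5, 146 and 126 CPM in combination libraries, against 32.9, 28.5 and 88.4 CPM in vehicle libraries. All 3 had separate groups, with vehicle 2-1 closest to the combination, and how reads were divided between HSPA1A and HSPA1B is not recorded. The list's median was 0.14 without vehicle 1-1 and 0.52 without vehicle 2-1. In the latter fit edgeR called the same 3 genes higher, against 0.957% of all genes then tested.

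The promoter of HSPA1A is shown because it carries the sequence bound by heat shock factors, paired inverted repeats of GAA. The 200 bases before its RefSeq start lie on the plus strand at chr6:31815343-31815542 (GRCh38.p14), with the match in capitals 106 bases before the start.
HSPA1A: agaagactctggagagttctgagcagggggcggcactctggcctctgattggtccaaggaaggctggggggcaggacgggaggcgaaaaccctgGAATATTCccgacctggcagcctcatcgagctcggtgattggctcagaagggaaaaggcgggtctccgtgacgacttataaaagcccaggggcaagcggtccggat
The search used TTCNNGAA and GAANNTTC, each its own reverse complement, within 250 bases before the start. Of the 16 chaperone promoters, 6 held a match (37.5%), as did 11.6% of all promoters. HSPH1 had no match in this window.

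Inflammatory and AU-rich transcripts had some of the highest medians. All 9 tested members of the p38-responsive cytokine and ARE list had a positive log2 fold change, against 50.4% of all genes, with a median of 0.72. There 3 were higher at an unadjusted p of 0.05, against 7.66% of all genes, edgeR called 0, and DESeq2 called 2 higher, against 0.575% of all genes. CXCL8, the neutrophil chemokine interleukin 8, had 32.2, 52.0 and 54.6 CPM in combination libraries, against 14.2, 22.8 and 13.7 CPM in vehicle libraries. VEGFA, the main angiogenic growth factor, had 272, 522 and 330.1 CPM in combination libraries, against 166, 122 and 194 CPM in vehicle libraries. Both genes had separate groups, although VEGFA spread widely under the combination. Of 18 NF-kB target genes, 16 had a positive log2 fold change with a median of 0.58. At an unadjusted p of 0.05, 5 were higher, and the shares of all genes are those given above. edgeR called 0 and DESeq2 called NFKB1 and CXCL8, both higher, against 0.575% of all genes. The cytokine and NF-kB lists share CXCL8, IL6, CXCL1, CXCL2, CXCL3 and TNFAIP3, so their values are not independent. NFKB1, which encodes the p105 precursor of the p50 subunit, had 64.2, 66.9 and 71.9 CPM in combination libraries, against 47.9, 38.7 and 44.8 CPM in vehicle libraries. The medians of these lists without any 1 of the 6 libraries lay between 0.49 and 1.09 for the cytokine list, with the highest value without vehicle 1-1, and between 0.43 and 0.62 for NF-kB targets.

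Immediate early genes, the first transcripts induced by MAP kinase signals, leaned the same way. The list shares IER3 with the cytokine list. Of 17 tested, 14 had a positive log2 fold change, against 50.4% of all genes, with a median of 0.37, which was 0.64 without vehicle 2-1, and edgeR called 0. EGR1, a zinc finger transcription factor, had 63.0, 62.3 and 68.4 CPM in combination libraries, against 25.4, 37.5 and 40.3 CPM in vehicle libraries, and was called by DESeq2. Without vehicle 2-1 edgeR called EGR1 higher too. FOSL2, an AP-1 subunit, had 9.96, 6.38 and 11.3 CPM in combination libraries, against 5.41, 4.5 and 4.27 CPM in vehicle libraries. The 14 MAP kinase feedback genes were evenly split, with 7 positive and 7 negative. DUSP4, a nuclear MAP kinase phosphatase, had 1172, 1183 and 1175 CPM in combination libraries, against 2083, 2150.2 and 1876 CPM in vehicle libraries, with a log2 fold change of -0.79 ± 0.224, an edgeR adjusted p of 0.185 and a DESeq2 adjusted p of 0.0409. Its 3 combination libraries were nearly equal. DUSP14, another phosphatase of the family, had 72.4, 85.9 and 92.6 CPM in combination libraries, against 45.4, 65.7 and 65.9 CPM in vehicle libraries.

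Lists of metabolism and oxygen supply had positive medians. Of 23 cholesterol synthesis genes, 19 had a positive log2 fold change, against 50.4% of all genes. At an unadjusted p of 0.05, 9 were higher, against 7.66% of all genes. edgeR called 0 and DESeq2 called 1 higher, against 0.575% of all genes. The median was 0.40, and it was 0.25 without combination 9-1 and 0.26 without vehicle 1-1. STARD4, a sterol carrier, had 13.8, 19.6 and 16.3 CPM in combination libraries, against 4.16, 8.11 and 10.4 CPM in vehicle libraries. Of 25 hypoxia and glycolysis genes, 21 had a positive log2 fold change, against 50.4% of all genes, with a median of 0.32. edgeR called 0 of them and DESeq2 called SLC2A1 and VEGFA, the latter also in the cytokine list. Both were higher, against 0.575% of all genes. Without vehicle 2-1 edgeR called HK2 higher. SLC2A1, the glucose transporter GLUT1, had 526, 527 and 562 CPM in combination libraries, against 354, 305 and 349 CPM in vehicle libraries. Its groups stood well apart and each was tight.

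Genes of coagulation, surface and matrix are described next. Among 18 genes of tissue factor and fibrinolysis, 12 had a positive log2 fold change, against 50.4% of all genes. At an unadjusted p of 0.05, 5 were higher and 0 lower, against 7.66% and 8.67% of all genes. edgeR called 0 and DESeq2 called F3 and ADTRP, both higher, against 0.575% of all genes. Without vehicle 2-1 edgeR called ADTRP and TFPI2 higher, against 0.957% of all genes then tested. The median was 0.53, which was 0.14 without combination 9-1, 0.25 without vehicle 1-1, 0.30 without vehicle 1-3, 0.83 without combination 8-1 and 0.88 without vehicle 2-1. F3, tissue factor itself, had 224, 426 and 333 CPM in combination libraries, against 184, 115 and 129 CPM in vehicle libraries. ADTRP, which regulates the tissue factor pathway inhibitor, had 97.0, 144 and 129 CPM in combination libraries, against 45.8, 34.5 and 71.8 CPM in vehicle libraries. TFPI2, a serine protease inhibitor of the matrix, had 64.5, 102 and 87.9 CPM in combination libraries, against 37.0, 44.7 and 62.6 CPM in vehicle libraries. Of 16 integrin subunits, ITGA10 was called and the median was -0.02, with values between -0.11 and 0.05 when 1 of the 6 libraries was left out. ITGA1, the alpha 1 chain and like ITGA10 a collagen receptor, had 36.9, 30.4 and 17.3 CPM in combination libraries, against 155, 86.5 and 64.0 CPM in vehicle libraries. ITGA10 and ITGA1 are named because they had the smallest p of the list, not because they bind collagen. Both had separate groups on the same side, although ITGA1 had an edgeR adjusted p of 0.133 and a DESeq2 adjusted p of 0.000639. Without vehicle 2-1 edgeR called ITGA1 lower as well. Of the 16 subunits, 3 had separate groups with the combination below and 1 with it above, against 11.2% and 10.7% of all genes. Of 18 collagen chains, edgeR called 0 and DESeq2 called COL4A1, a basement membrane chain, which had 75.6, 69.3 and 68.1 CPM in combination libraries, against 37.5, 42.9 and 46.9 CPM in vehicle libraries. COL18A1, the source of endostatin, had 305, 219 and 174 CPM in combination libraries, against 420, 471 and 324 CPM in vehicle libraries.

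Mesenchymal and epithelial identity genes gave no edgeR call with all libraries, and LOXL2 was called higher without vehicle 2-1. Of 19 mesenchymal regulators and lysyl oxidases, edgeR called 0 and the median was -0.04. It was -0.19 without vehicle 2-1 and 0.04 without combination 8-1. DESeq2 called SNAI2 and LOXL2 higher, against 0.575% of all genes. LOXL2, which crosslinks collagen, had 174, 221 and 203 CPM in combination libraries, against 109, 120.1 and 134 CPM in vehicle libraries. SNAI2, the transcription factor Slug, had 57.4, 59.0 and 51.5 CPM in combination libraries, against 34.1, 26.7 and 37.0 CPM in vehicle libraries. Of 16 epithelial identity genes, 3 had a positive and 13 a negative log2 fold change, against 50.4% positive among all genes. Their median was -0.31, but 0 had separate groups, against 22.0% of all genes. The median was 0.01 without vehicle 1-1, -0.11 without combination 9-2, -0.49 without combination 8-1 and -0.54 without vehicle 2-1. ELF3, an epithelial transcription factor, had 2.34, 1.76 and 1.57 CPM in combination libraries, against 7.49, 6.30 and 0.948 CPM in vehicle libraries. MUC1, an apical mucin, had 17.3, 12.3 and 7.22 CPM in combination libraries, against 60.8, 20.7 and 6.64 CPM in vehicle libraries. Both genes overlapped, since vehicle 2-1 lay below every combination library. Among 22 invasion proteases and inhibitors, edgeR called 0 and the median was 0.28, which was 0.12 without combination 9-2. DESeq2 called MMP7 lower and ADAMTS6 higher, and edgeR called MMP7 without vehicle 2-1. MMP7, matrilysin, had 6.15, 3.52 and 1.26 CPM in combination libraries, against 85.3, 20.7 and 4.5 CPM in vehicle libraries, with overlap and the highest level in vehicle 1-1, and ADAMTS6, a matrix metalloprotease, had 48.6, 37.9 and 58.4 CPM in combination libraries, against 28.3, 19.8 and 29.4 CPM in vehicle libraries.

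Glucocorticoid response genes had the lowest median of the pathway lists, at -0.35 over 18 genes. Of these, 7 had a positive and 11 a negative log2 fold change, against 50.4% positive among all genes. At an unadjusted p of 0.05, 6 were lower, against 8.67% of all genes. edgeR called 0, and DESeq2 called METTL7A, FKBP5 and KLF9 lower and SGK1 higher, so calls lay on both sides. Of all genes, DESeq2 called 0.759% lower and 0.575% higher. FKBP5, a co-chaperone of the glucocorticoid receptor, had 35.2, 47.3 and 48.6 CPM in combination libraries, against 193, 142 and 84.6 CPM in vehicle libraries. KLF9, a transcription factor induced by the receptor, had 58.3, 48.0 and 50.8 CPM in combination libraries, against 182, 179.8 and 101 CPM in vehicle libraries. Both had separate groups, with vehicle 2-1 nearest to the combination. The median was -0.05 without vehicle 1-1 and -0.21 without combination 9-2. Without vehicle 2-1 edgeR called FKBP5, KLF9 and METTL7A lower and SGK1 higher, against 0.825% and 0.957% of all genes then tested. Of 18 BMP and SMAD response genes, 7 had a positive and 11 a negative log2 fold change, and the median was -0.24. At an unadjusted p of 0.05, 6 were lower and 1 higher, against 8.67% and 7.66% of all genes. edgeR called 0 and DESeq2 called SMAD9 lower, as did edgeR without vehicle 2-1. The median was -0.05 without vehicle 2-1. SMAD9, a receptor-regulated SMAD of the BMP branch, had 5.27, 7.26 and 5.65 CPM in combination libraries, against 17.9, 21.6 and 10.2 CPM in vehicle libraries. ATOH8, a helix-loop-helix factor induced by BMP, had 3.52, 2.2 and 2.51 CPM in combination libraries, against 17.1, 22.8 and 12.6 CPM in vehicle libraries, and its groups stood far apart at a low level.

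**Figure D4:**
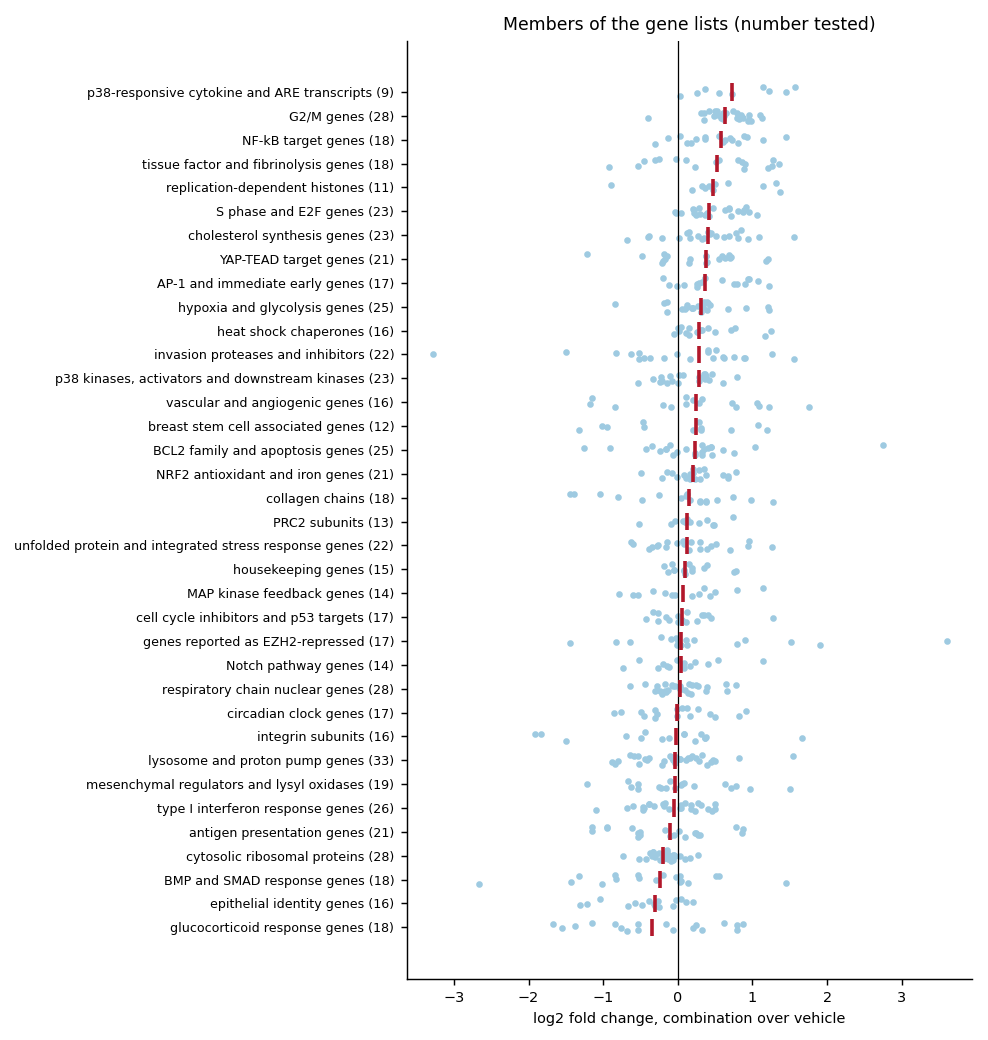
Each row is a list, with the number of members tested in parentheses. Points are the log2 fold changes of its members, combination over vehicle, the red bar is the list's median and the black line the median of all genes tested (0.01). Medians run between 0.72 for the p38-responsive cytokine and ARE list and -0.35 for glucocorticoid response genes, and most lists hold members on both sides of the line.

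The remaining pathway lists had no edgeR call with all libraries, and without vehicle 2-1 edgeR called BBC3 and the lysosomal CTSD lower. Over 25 genes of the BCL2 family and apoptosis the median was 0.24, which was 0.05 without combination 9-1, 0.15 without vehicle 1-1 and 0.36 without combination 8-1, and DESeq2 called BBC3 lower. BBC3, which encodes the cell death inducer PUMA, had 173, 128 and 102 CPM in combination libraries, against 403, 359 and 199.6 CPM in vehicle libraries, and HRK, another cell death inducer, had 1.17, 2.64 and 2.82 CPM in combination libraries, against 0.416, 0 and 0.474 CPM in vehicle libraries. The medians were 0.37 over 21 YAP-TEAD target genes, 0.25 over 16 vascular and angiogenic genes, 0.24 over 12 breast stem cell associated genes and 0.20 over 21 NRF2 antioxidant and iron genes. The vascular median was 0.09 without combination 9-2 and 0.41 without vehicle 2-1. The stem cell median was -0.04 without combination 9-1, 0.15 without vehicle 1-1 and 0.13 without vehicle 1-3. CXCR4, a chemokine receptor of the stem cell list, had 102, 108 and 234 CPM in combination libraries, against 66.6, 59.4 and 67.3 CPM in vehicle libraries, and ANGPT1, a ligand of the TIE2 receptor, had 30.8, 21.8 and 11.9 CPM in combination libraries, against 57.4, 50.1 and 36.7 CPM in vehicle libraries. Both were called by DESeq2. CD44, a hyaluronan receptor, had 525, 560.5 and 598 CPM in combination libraries, against 354, 337 and 336 CPM in vehicle libraries. Medians closer to 0 were found for genes of the integrated stress response and unfolded proteins (0.12 over 22 genes), cell cycle inhibitors and p53 targets (0.06 over 17), the Notch pathway (0.04 over 14), the nuclear respiratory chain (0.03 over 28) and the circadian clock (-0.01 over 17). The same held for lysosome and proton pump genes (-0.04 over 33), type I interferon response genes (-0.04 over 26) and antigen presentation genes (-0.10 over 21). With 1 of the 6 libraries left out, the medians of these 8 lists lay between -0.20 and 0.27, and all but that of the stress response turned sign without at least 1 library.

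Some technical lists moved with the groups. MALAT1, a nuclear long noncoding RNA and the most abundant transcript shown here, took between 1.67% and 2.37% of counts in combination libraries and between 3.12% and 3.88% in vehicle libraries. NEAT1, the scaffold of paraspeckles, had 896, 820.0 and 629.8 CPM in combination libraries, against 1518, 1452 and 1098 CPM in vehicle libraries. Of 28 cytosolic ribosomal protein genes, 4 had a positive and 24 a negative log2 fold change, against 50.4% positive among all genes. Their median was -0.19 and edgeR called 0. Their summed level lay between 31375 and 34680 CPM in combination libraries and between 38194 and 38927 CPM in vehicle libraries. Replication-dependent histones had a median of 0.47 over 11 genes, which was 0.05 without combination 8-1, and housekeeping genes one of 0.10 over 15. The part of these transcripts in the other results was not tested.

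With all libraries, edgeR called no marker of another cell type. Fibroblast markers summed to between 542 and 1129 CPM in combination libraries and between 460.0 and 1019 CPM in vehicle libraries, and endothelial markers to between 251 and 265 CPM in combination libraries and between 168 and 308 CPM in vehicle libraries. POSTN, a matrix protein of fibroblasts called lower by DESeq2, had 1.76, 0.440 and 1.26 CPM in combination libraries, against 61.2, 10.8 and 1.42 CPM in vehicle libraries. Without vehicle 2-1 edgeR called it lower too. Of the 8 fibroblast markers tested, 5 had a positive and 3 a negative log2 fold change, against 50.4% positive among all genes. The median of these markers was 0.34, and 0.67 without vehicle 1-1. Skeletal muscle markers summed to between 68.0 and 97.6 CPM in combination libraries and between 81.1 and 249 CPM in vehicle libraries, with the highest value in vehicle 1-1, and all 5 tested members had a negative log2 fold change. Their median was -2.16, and 0.20 without vehicle 1-1. Among the 6 libraries compared, the vehicle library that stood apart on the first component thus also carried the most POSTN and muscle RNA. The part of POSTN and muscle RNA in the results was not tested. Pericyte markers summed to between 70.6 and 89.1 CPM in combination libraries and between 75.6 and 150.3 CPM in vehicle libraries. Macrophage markers summed to at most 40.8 CPM in combination libraries and 35.6 CPM in vehicle libraries, T cell markers to at most 19.5 CPM in combination libraries and 16.2 CPM in vehicle libraries, and adipocyte markers to at most 20.0 CPM in combination libraries and 23.2 CPM in vehicle libraries. Erythroid markers summed to between 2.93 and 27.6 CPM in combination libraries and between 1.25 and 5.21 CPM in vehicle libraries, with HBA1 and HBA2 at 0 counts in all 6. Keratinocyte and luminal markers summed to between 119 and 165 CPM in combination libraries and between 99.1 and 151 CPM in vehicle libraries. Of 8 neutrophil markers, 0 passed the filter and 4 had 0 counts in all 6 libraries.

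Tests against the single agents asked what the pair changed beyond each compound alone. edgeR called 0 genes in combination against EZH2i, with 391 genes (3.12%) at an unadjusted p of 0.05, and DESeq2 called PTX3. It called 0 genes in combination against p38i, with 977 genes (7.81%) at an unadjusted p of 0.05, and DESeq2 called 7 (0.0559%). The p38i library taken as column 6 stood apart, with skeletal muscle markers summing to 2216 CPM against at most 249 CPM in any other library and a score of -29.9 on the second principal component. Without it DESeq2 called 0 genes in this comparison, and without combination 9-1 it also called 0. PTX3 had 17.9, 24.9 and 13.5 CPM in EZH2i libraries and 21.8, 14.1 and 15.9 CPM in p38i libraries, so the lowest combination library lay above all single-agent libraries. Its log2 fold change was 1.91 ± 0.404 against EZH2i and 2.06 ± 0.403 against p38i, with edgeR adjusted p-values of 0.991 and 0.575 and DESeq2 adjusted p-values of 0.0301 and 0.00235. The DESeq2 call of PTX3 against EZH2i was lost without combination 9-1, combination 9-2, EZH2i 5-3 or EZH2i 6-1, and that against p38i without combination 9-1, combination 9-2 or either p38i library other than 3-3. Without combination 8-1 DESeq2 gave no adjusted p for PTX3 against p38i. SERPINA3, an acute phase protease inhibitor named after its value was seen, had 11.7, 13.6 and 9.73 CPM in combination libraries, against 2.73, 1.66 and 1.71 CPM in p38i libraries, and had 19.1, 11.4 and 20.6 CPM under vehicle. The genes called by DESeq2 as lower in combination libraries than in p38i libraries included CCDC69, NARS, PFDN6 and SRF.

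The single agents were also set against vehicle, and these comparisons share the vehicle libraries. For ITGA10 the log2 fold changes were -1.49 under the combination, -1.66 under EZH2i and -1.87 under p38i. For PTX3 they were 2.56 under the combination, 0.65 under EZH2i and 0.50 under p38i, and for SNAI2 0.78 under the combination, 0.03 under EZH2i and 0.11 under p38i. The median of G2/M genes was 0.63 under the combination, 0.60 under EZH2i and 0.78 under p38i. For NF-kB targets it was 0.58 under the combination, 0.08 under EZH2i and 0.08 under p38i. For tissue factor and fibrinolysis genes it was 0.53 (0.14 without combination 9-1) under the combination, -0.18 under EZH2i and -0.24 under p38i. In both lists single-agent and combination libraries overlapped. As log2 of CPM + 0.5, the NF-kB median was 4.95, 4.93 and 4.52 in combination libraries. It was 4.56, 4.46 and 4.11 in EZH2i libraries and 5.13, 4.15 and 4.105 in p38i libraries. The tissue factor median was 6.205, 6.925 and 6.743 in combination libraries. It was 6.112, 6.176 and 6.714 in EZH2i libraries and 6.255, 5.961 and 6.802 in p38i libraries. Directly against the single agents, which leaves the shared vehicle out, the median of NF-kB targets was 0.33 over EZH2i and 0.38 over p38i, and that of tissue factor and fibrinolysis genes 0.43 over EZH2i and 0.61 over p38i, with no member called by edgeR. The medians of all genes were -0.02 over EZH2i and 0.01 over p38i. Like values, in the same order, were 0.55 and 0.37 for the cytokine list and 0.36 and 0.25 for antigen presentation genes. Heat shock chaperones had -0.29 and -0.19. The medians against single agents were not checked with libraries left out.

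The interaction asked whether the log2 effects of the inhibitors added up. edgeR called 3 genes (0.0240%), of which 2 had a positive and 1 a negative term, with 1644 genes (13.1%) at an unadjusted p of 0.05. DESeq2 called 129 positive (1.03%) and 97 negative (0.775%), or 1.81% together. ITGA10 had 83.3, 68.9 and 102 CPM in EZH2i libraries and 79.4, 69.8 and 70.0 CPM in p38i libraries, so all inhibitor groups stood near each other and below vehicle. Its interaction was 2.04 ± 0.263 on the log2 scale with an edgeR adjusted p of 0.00815. FAM155A, a subunit of the NALCN sodium leak channel complex, had 24.0, 27.5 and 21.3 CPM in combination libraries, 15.4, 11.9 and 15.7 CPM in EZH2i libraries, 13, 13.2 and 13.5 CPM in p38i libraries and 36.6, 33.9 and 43.4 CPM in vehicle libraries. The combination libraries lay between the single agents and vehicle, and the interaction was 2.30 ± 0.283 with an edgeR adjusted p of 0.00815. HSPH1 had 322, 326 and 312 CPM in EZH2i libraries and 305, 217 and 220.2 CPM in p38i libraries, against the combination and vehicle values above. Its combination level lay below every EZH2i library, and the interaction was -1.58 ± 0.221 with an edgeR adjusted p of 0.0142. All 3 terms are below full addition, since each gene differed from vehicle by less under the combination than the sum of both single differences.

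**Figure D5:**
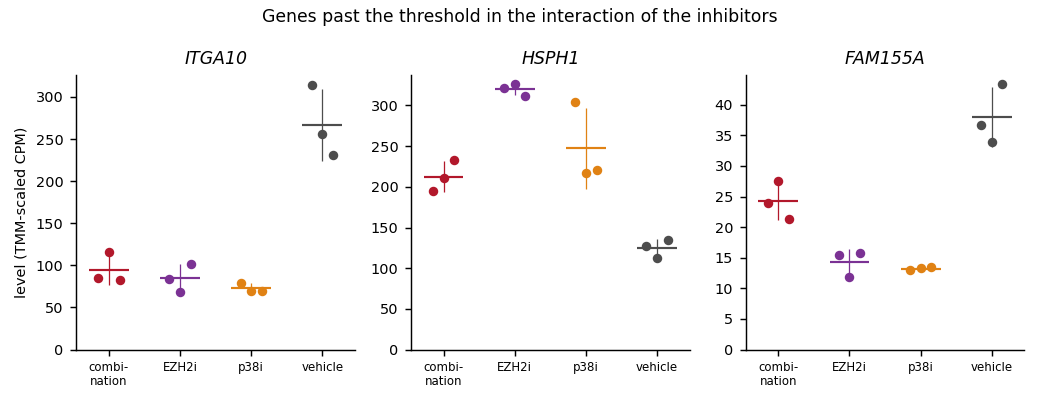
Levels (TMM-scaled CPM) of the 3 genes called in the interaction, with 1 point per library, the mean as a horizontal line and the SD as a vertical line. FAM155A and HSPH1 under the combination stand nearer to vehicle than EZH2i does, and ITGA10 lies between 68.9 and 115 CPM in the 3 inhibitor groups.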

How the data were processed

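RNA of MDA-MB-231 tumours was made into libraries from 1.3 µg of total RNA each, per the labels' protocols, which name both a SMARTER mRNA kit and QuantSeq. Per the submitters' processing notes, Trim Galore 0.5.0, STAR 2.6.0 and the build hg19 were used; how reads were counted, by which gene models and with which strand setting is not given in the sources used here. The deposited values are raw counts per gene symbol. Another 3 rows without a gene name, each at 0 in every library, were dropped. Columns were joined by header name. The labels name column 5 for 2 p38i samples and column 6 for none, so column 6 was taken as p38i by elimination.

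Counts were filtered with filterByExpr and fitted with edgeR 4.0.16 (R 4.3.3; TMM scaling, quasi-likelihood F test, robust option, 12 libraries, 1 term per group). P-values are two-sided and adjusted by Benjamini-Hochberg over 12514 genes, with a threshold of 0.05; the biological coefficient of variation was 0.219. Standard errors follow from the F statistics. The code was tested on simulated data. Alternatives used DESeq2 1.42.0, limma 3.58.1 and other scalings, filters and libraries. Named genes were the 10 with the smallest p, genes past the threshold in any comparison, list members past it or, failing 2 of these, the 2 with the smallest p, and both drug targets. FKBP5, KLF9 and HSPA1B were added as list members called by DESeq2, after their values were seen; other additions are marked in the text. The 48 gene lists and the comparison were chosen with earlier results of these data known. Promoters come from RefSeq (GRCh38.p14); no other coordinates are given because no hg19 annotation was at hand. A few genes that the rule names are not reported here.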

Additional observations from a re-analysis of the deposited data

Results flagged for a closer look

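The effect of 1 inhibitor differed between tumours with and without the other inhibitor in 3 genes, by the interaction test of edgeR. The terms were 2.30 for FAM155A, 2.04 for ITGA10 and -1.58 for HSPH1 on the log2 scale. FAM155A and ITGA10 passed the threshold under all 20 alternatives run, with terms between 2.17 and 2.38 and between 1.86 and 2.18. The fit without column 6 is counted among these both as a setting and as a left-out library. HSPH1 passed under 17 of 20, with terms between -1.68 and -1.40, and missed the threshold without combination 8-1, combination 9-1 or vehicle 1-3. The 3 genes share the vehicle libraries in this test, and the cause was not tested.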

How the results depend on the processing

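Counts of called genes depended on the tool and on single libraries. For combination against vehicle, edgeR called 0 higher and 1 lower. The counts became 1 and 2 with library totals alone, 22 and 20 with no filter on low counts, 72 and 95 with DESeq2, and 1 and 3 with the combination and vehicle libraries alone. Leaving out 1 library gave between 0 and 123 higher and between 0 and 106 lower, and leaving out EZH2i 5-4 gave 16 and 16. DESeq2 with 1 library left out, an alternative chosen after seeing the data, gave between 10 and 561 higher and between 15 and 397 lower. The contrast with EZH2i had 0 calls, and 1 with DESeq2. The contrast with p38i had 0, 1 with no filter and 7 with DESeq2. The interaction had 3 calls, 70 with no filter, 226 with DESeq2, 8 without the column no label names, and between 2 and 42 with 1 library left out. Log2 fold changes that turned sign were those of EZH2 (between -0.015 and 0.29 with 1 library left out), PPARG (between -0.317 and 0.50) and NEB (between -1.65 and 0.197). Of the other gene values under alternatives, 1971 kept their direction and side of the threshold, 90 moved past it and 3 fell short of it. The median of all genes moved to 0.067 with library totals. No paired analysis was possible because the groups share no tumour numbers. The medians of lists without single libraries and the DESeq2 fits against single agents with 1 library left out, both given in the report, were also chosen after seeing the data.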

Other observations

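Genes of innate immunity and antigen display held values on both sides of 0, all short of the edgeR threshold. XAF1, an interferon-induced promoter of cell death, had 25.5, 11.4 and 8.79 CPM in combination libraries, against 42.9, 29.1 and 26.1 CPM in vehicle libraries. The groups did not overlap. PSMB9, an immunoproteasome subunit, had 28.4, 21.8 and 20.4 CPM in combination libraries, against 11.7, 10.8 and 15.9 CPM in vehicle libraries. HLA-E, a class I molecule read by natural killer cells, had 180.5, 140.4 and 149 CPM in combination libraries, against 240.2, 228 and 201 CPM in vehicle libraries. The edgeR adjusted p of these genes lay between 0.22 and 0.23.

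Clock and lysosome genes also held opposite members. BHLHE41, a repressor of clock genes, had 59.5, 68.5 and 43.9 CPM in combination libraries, against 114.9, 93.7 and 103 CPM in vehicle libraries, with a DESeq2 adjusted p of 0.0488 and an edgeR adjusted p of 0.180. CRY1, a cryptochrome, had 48.3, 67.6 and 64.3 CPM in combination libraries, against 27.1, 31.8 and 42.4 CPM in vehicle libraries. CTSD, a lysosomal protease, had 375, 261 and 279 CPM in combination libraries, against 689, 547 and 365 CPM in vehicle libraries, and its groups overlapped at vehicle 2-1.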
